A study of Homo sapiens with 36 samples.

Results

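To compare a synthetic progestin with the natural hormone in the absence of estrogen, gene expression was examined in ZR-75-1 cells exposed to medroxyprogesterone acetate (MPA) or to progesterone (P4). ZR-75-1 is an established line of human breast cancer cells that carries the estrogen receptor. Both steroids were given at 10 nM for 16 h in medium free of phenol red with charcoal-stripped serum, and neither group received estradiol (E2). There were 4 arrays of each, chosen by these treatment labels alone, so that the comparison rests on 8 of the 36 arrays of the series. The series holds 9 groups of 4 arrays. For reference, each progestin was set against the vehicle (ethanol) group. Further reference groups were E2+MPA and E2+P4, in which the same progestins were given together with 10 nM E2 for 16 h. Another was given 10 nM dihydrotestosterone (DHT), an androgen, without E2. The remaining groups received E2 alone (E2), E2 with DHT (E2+DHT), or E2 first and P4 later (E2pre+P4). These were not compared here. Because the model was fitted over all 36 arrays, they still enter the SE and p-value of each comparison. The cells of all groups are 1 cell line, and whether replicates are separate cultures is not in the labels. P-values therefore measure the spread between these samples, which may be technical.

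Progestins act through the progesterone receptor (PR), a transcription factor that binds DNA once a ligand is bound. The glucocorticoid receptor (GR) is a close relative of PR, binds the same kind of DNA element and shares many target genes with it. P4 is the natural ligand of PR, whereas MPA, which differs from it by an added methyl group and an added acetoxy group, is known to bind GR as well. In breast cancer cells PR is itself induced by estrogen, and progestin-induced genes include FKBP5, which encodes a co-chaperone of steroid receptors.

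Between 12993 and 14140 probes were detected on the MPA arrays and between 13329 and 13681 on the P4 arrays, of 48803 probes (detection p under 0.01). By the 200 genes that best separated the groups among the remaining arrays, each of these 8 arrays lay nearest to the mean of its own group, and this held for 32 of the 36 arrays of the series. Among the others, those labelled E2 replicate 2 and E2pre+P4 replicate 2 (P4 after a longer exposure to E2) were each nearest to the group of the other, vehicle replicate 2 was nearest to the P4 group and E2 replicate 4 to the E2+P4 group. None of these belongs to the MPA or P4 groups, but all arrays share the estimate of the spread, and the number of called genes is given with and without them. All 15 markers of luminal epithelium, the cell type of this line, were detected on all 8 arrays. Of the markers with a probe, 2 of 8 basal and myoepithelial, 2 of 12 fibroblast, 1 of 11 leukocyte and 0 of 8 endothelial markers were detected on all 8 arrays, and the leukocyte marker PTPRC and the endothelial marker PECAM1 were detected on none. In RNA pooled from many cells, fewer cells of a type and less RNA per cell cannot be told apart.

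Few genes differed between MPA-treated and P4-treated cells, and most of those that did were higher with MPA. Of 9902 genes tested, 37 differed between the groups at a Benjamini-Hochberg adjusted p under 0.05 in limma (0.374% of the genes tested), with 35 higher (0.353%) and 2 lower (0.0202%) in MPA-treated cells. The median difference over all genes was -0.01 (log2, MPA minus P4), and the 95% interval of a difference extended 0.400 to each side at the median. The differences of the higher genes ranged from 0.51 to 3.07 on the log2 scale, with a median of 1.09, and 23 of the 37 genes differed by more than 1. For each of the 37 genes the 4 MPA arrays and the 4 P4 arrays did not overlap, as was the case for 447 of all genes tested (4.51%). The 447 were 281 higher and 166 lower with MPA. At an unadjusted p under 0.05 there were 280 genes, 202 of them higher with MPA. With array weights 192 genes were called, 143 higher and 49 lower. Leaving out the arrays labelled E2 replicate 2 and E2pre+P4 replicate 2 raised the number of called genes to 55, which included all 37. Without vehicle replicate 2 there were 39 and without E2 replicate 4 there were 38, all 37 among them in each case.

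**Figure D1:**
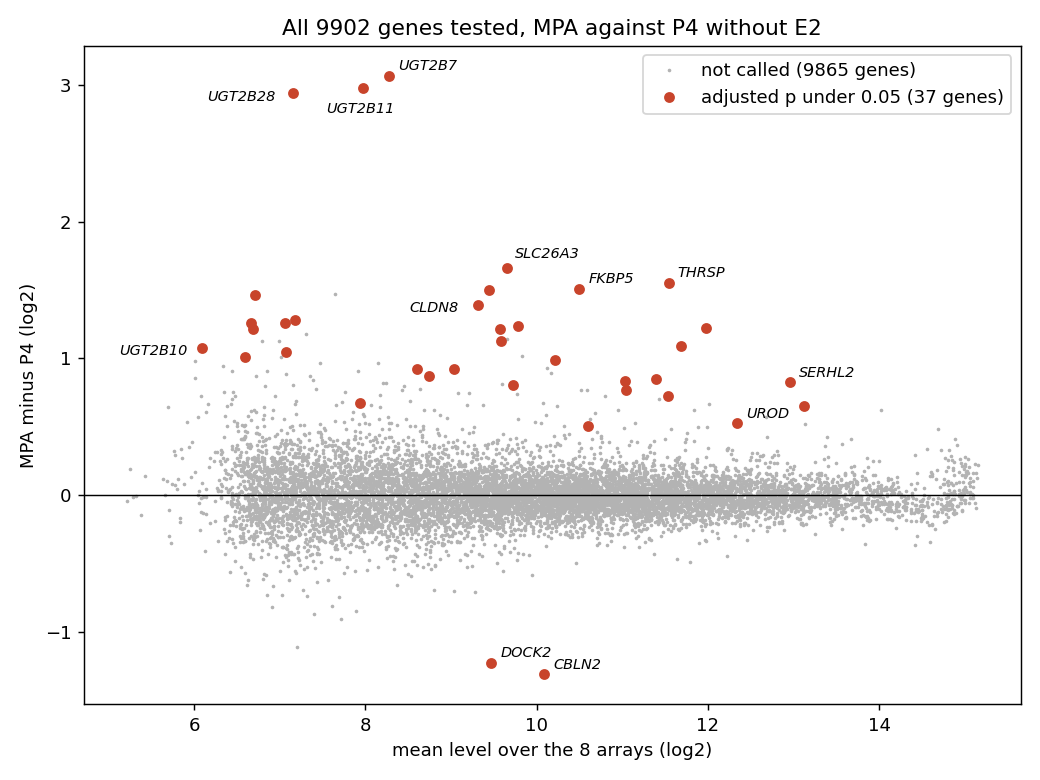
Each point is 1 of the 9902 genes tested, with its mean level over the 8 arrays (log2) on the horizontal axis and the difference MPA minus P4 (log2) on the vertical axis. The 37 called genes are in red, 35 of them above 0, and the 3 highest are UGT2B7, UGT2B11 and UGT2B28 at 2.94 to 3.07.

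The highest fitted differences were those of 3 UGT2B enzymes (UGT2B7, UGT2B11 and UGT2B28), which attach glucuronic acid to steroids and so mark androgens and other steroids for excretion. All 4 UGT2B genes tested had higher values with MPA than with P4, but only 3 of them were detected on the MPA arrays. The 3 others listed (UGT2B4, UGT2B15 and UGT2B17) were not among the genes tested. UGT2B7 stood at 6.83, 6.89, 6.49 and 6.77 (log2) on the 4 P4 arrays and at 10.07, 9.83, 9.79 and 9.56 on the MPA arrays. The P4 values lay below the detection level on all 4 arrays, whereas all 4 MPA values lay above it. The difference was 3.07 ± 0.25 (SE, adjusted p = 1.07e-09), which in terms of the detection level is at least 6.82-fold. For such genes the fold was set against the detection level of the array, and "at least" marks this lower bound. UGT2B11 stood at 6.24, 7.18, 6.62 and 5.87 with P4, where it was detected on 1 of 4 arrays, and at 9.71, 9.62, 9.47 and 9.04 with MPA, a difference of 2.98 ± 0.19 (adjusted p = 9.14e-13). UGT2B28 stood at 5.57, 5.63, 5.93 and 5.64 with P4 and at 8.73, 8.56, 8.50 and 8.73 with MPA, a difference of 2.94 ± 0.15 (adjusted p = 1.43e-14, at least 2.998-fold). The replicates of both genes lay far closer to each other than the groups did. UGT2B10 was not well above background on any of the 8 arrays, at 5.59, 5.36, 5.34 and 5.93 with P4 and 6.62, 6.45, 6.51 and 6.95 with MPA, and no fold is given for its difference of 1.07 ± 0.17 (adjusted p = 0.000300). It was detected on all 4 DHT arrays, at least 4.52-fold higher than with MPA. The UGT2B genes are close relatives in sequence, and signal shared between their probes was not tested.

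The UGT2B genes lie in 1 cluster on chromosome 4, with UGT2B11 next to UGT2B7 and to UGT2B28. To show how alike their control regions are, the 250 bases before the annotated start are given for the 3 of them that have a promoter entry (RefSeq, GRCh38.p14), 5′ to 3′, with the longest run found in all 3 sequences, 13 bases, in capitals.
UGT2B7 (chr4:69096224-69096473, plus strand): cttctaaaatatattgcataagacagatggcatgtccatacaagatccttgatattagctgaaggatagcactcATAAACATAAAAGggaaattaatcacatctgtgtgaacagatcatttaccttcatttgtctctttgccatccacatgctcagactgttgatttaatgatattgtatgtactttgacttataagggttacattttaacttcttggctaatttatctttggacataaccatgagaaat
UGT2B10 (chr4:68815744-68815993, plus strand): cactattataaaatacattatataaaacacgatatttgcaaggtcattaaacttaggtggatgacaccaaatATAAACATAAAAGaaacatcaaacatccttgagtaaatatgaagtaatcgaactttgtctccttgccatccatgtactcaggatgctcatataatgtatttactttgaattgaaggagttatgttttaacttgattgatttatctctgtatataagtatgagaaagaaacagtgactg
UGT2B11 (chr4:69214749-69214998, minus strand): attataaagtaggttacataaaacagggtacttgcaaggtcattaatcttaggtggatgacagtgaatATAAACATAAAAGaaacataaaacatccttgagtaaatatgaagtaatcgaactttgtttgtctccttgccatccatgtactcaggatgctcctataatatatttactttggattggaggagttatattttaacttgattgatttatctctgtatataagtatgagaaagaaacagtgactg
In global alignments UGT2B10 and UGT2B11 shared 229 of 246 aligned bases (93.1%), UGT2B7 and UGT2B10 177 of 226 (78.3%), and UGT2B7 and UGT2B11 175 of 231 (75.8%).

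**Figure D2:**
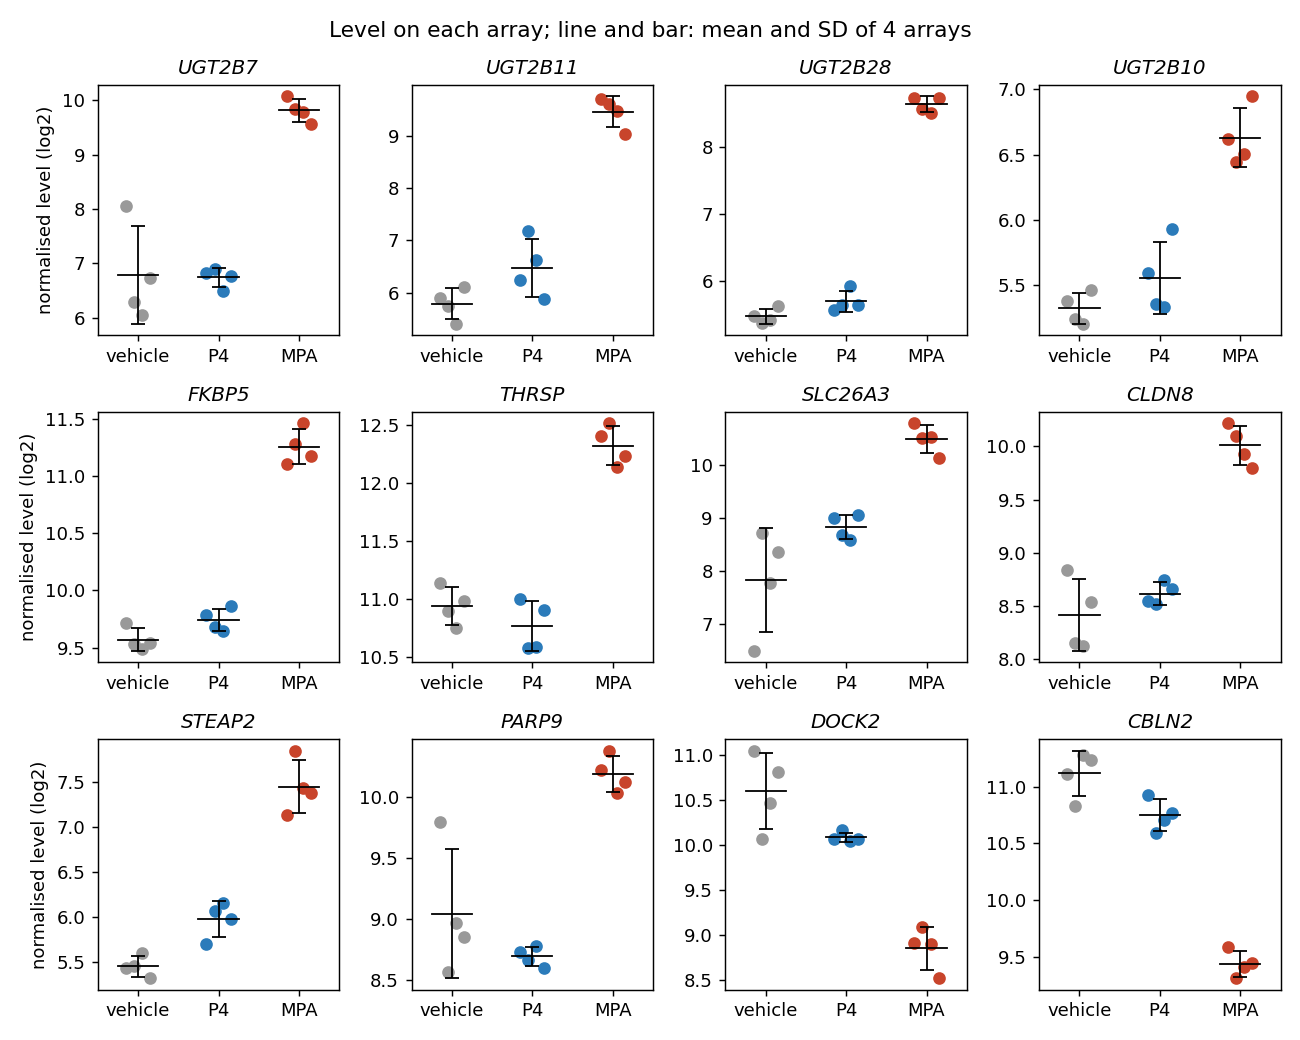
Normalised level (log2) on each of the 4 vehicle, 4 P4 and 4 MPA arrays for 12 of the called genes, with the mean (line) and SD (bar) of each group. In every panel the MPA arrays and the P4 arrays do not overlap, and UGT2B7 stands at 9.56 to 10.07 with MPA and at 6.49 to 6.89 with P4.

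Of the genes known to be induced by progestins, FKBP5 and BCL6 were higher with MPA, and the receptors themselves did not pass the test. FKBP5 stood at 9.78, 9.68, 9.65 and 9.86 on the P4 arrays and at 11.11, 11.28, 11.46 and 11.17 on the MPA arrays. All MPA arrays were above all P4 arrays, by 1.51 ± 0.32 on average (adjusted p = 0.0169, 2.85-fold). Without the arrays labelled E2 replicate 2 and E2pre+P4 replicate 2, on which FKBP5 stood at 11.51 and 9.35 against 9.52 to 10.04 and 11.20 to 11.48 on the other arrays of those groups, the adjusted p was 4.30e-09. The call of FKBP5 was lost with runs of 6 consecutive samples as a block (adjusted p = 0.0625) and without MPA replicate 2 (adjusted p = 0.0556), MPA replicate 3 (0.0755), P4 replicate 1 (0.0520), P4 replicate 2 (0.0649) or P4 replicate 3 (0.0707), with differences of 1.44 to 1.56 over all single arrays left out. BCL6, a transcriptional repressor, stood at 11.06, 11.30, 11.10 and 11.24 with P4 and at 11.87, 11.93, 11.91 and 11.90 with MPA, a difference of 0.73 ± 0.13 (adjusted p = 0.00186). Its 4 MPA values lay close together and above all P4 values. FKBP5 and BCL6 were the 2 called members of 29 measured progestin-induced genes, whose median difference was 0.19, with 21 above 0. Of all 9902 genes tested, 4706 were above 0. TSC22D3, another gene induced by progestins and glucocorticoids, differed by 0.19 ± 0.22 (95% interval -0.27 to 0.64). Among 18 glucocorticoid-induced genes FKBP5 alone was called, and the median was 0.12. The called members of the progestin-induced and glucocorticoid-induced lists numbered 5 and 2 without the arrays labelled E2 replicate 2 and E2pre+P4 replicate 2, 4 and 2 with cyclic loess, 7 and 4 with array weights, and 1 and 0 with such runs as a block.

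PGR, which encodes PR, was not well above background on any of the 8 arrays, at 5.38 to 6.37 with P4 and 5.35 to 5.78 with MPA. NR3C1, which encodes GR, was detected on 2 of 4 P4 arrays and 1 of 4 MPA arrays, and differed by -0.34 ± 0.24 (adjusted p = 1.000). ESR1, the gene of the estrogen receptor, stood at 10.97, 10.87, 10.87 and 10.83 with P4 and at 10.59, 10.51, 10.36 and 10.61 with MPA. These values did not overlap, but the difference of -0.37 ± 0.23 did not pass the test (adjusted p = 1.000, 95% interval -0.84 to 0.10). Of 18 measured steroid receptors and cofactors FKBP5 was the only one called. The co-chaperone FKBP4 differed by -0.08 and the mineralocorticoid receptor gene NR3C2 by -0.39. The vitamin D receptor VDR differed by -0.10, the retinoid receptors RARA and RXRA by 0.05 and -0.07, and the coactivators NCOA1 and NCOA2 by 0.13 and 0.14. The corepressor NRIP1 differed by -0.03, the lineage factors FOXA1, GATA3 and TFAP2C by 0.05, -0.13 and -0.18, and the chaperones HSP90AA1, HSP90AB1 and PTGES3 by 0.17, -0.06 and -0.16. Apart from FKBP5, no member of this list reached the threshold.

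Several of the genes that were higher with MPA are known to be induced by androgens in prostate cells. Of 24 measured androgen-induced genes, 6 were called, all higher with MPA (FKBP5, STEAP1, STEAP2, UGT2B11, UGT2B28 and CLDN8), with a median of 0.34 against -0.01 over all genes. Over all genes tested 0.374% were called. With no detection filter the median of these androgen-induced genes was 0.14. This list, like the others, was chosen with earlier results of these data known, so its count and median are a description only. STEAP1 and STEAP2, members of a family that includes reductases of iron and copper at membranes, are neighbouring genes. STEAP2 stood at 5.70, 6.06, 6.16 and 5.98 with P4, below detection on all 4 arrays, and at 7.13, 7.84, 7.43 and 7.37 with MPA, a difference of 1.47 ± 0.21 (adjusted p = 0.000141, at least 1.32-fold). STEAP1 was detected on 3 of 4 MPA arrays and on no P4 array, at 8.36, 7.63, 7.73 and 7.05 against 6.39, 6.77, 6.21 and 6.38, a difference of 1.26 ± 0.25 (adjusted p = 0.00591, at least 1.57-fold). Its call was lost without MPA replicate 1, the highest of the 4 (adjusted p = 0.0668), and with runs of 6 as a block (0.0574). STEAP3 differed by 0.05. CLDN8, a claudin of tight junctions, stood at 8.54, 8.51, 8.75 and 8.66 with P4 and at 10.21, 10.10, 9.93 and 9.80 with MPA. All MPA arrays were above all P4 arrays, and the difference of 1.39 ± 0.18 had an adjusted p of 2.05e-05. It was the only one of 13 measured claudins and tight junction genes that was called, and the others differed by -0.27 (CLDN3) to 0.17 (TJP1). TARP, a transcript of the T cell receptor gamma locus that prostate cells express, stood at 11.51, 11.11, 11.31 and 11.54 with P4 and at 12.64, 12.65, 12.81 and 12.26 with MPA, a difference of 1.22 ± 0.16 (adjusted p = 3.91e-05). EAF2, an elongation factor partner known as androgen-induced in prostate, differed by 1.21 ± 0.25 (adjusted p = 0.0131).

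The remaining measured claudins were CLDN4 at 0.04, CLDN7 at -0.02, CLDN12 at -0.06, CLDN15 at -0.10, CLDN1 at -0.13 and CLDN23 at -0.21. The junction genes MARVELD3, MARVELD2, CGN and OCLN differed by 0.05, -0.09, -0.14 and -0.25. These differences, none of them called, lay within the half-width of 0.400 that a typical interval had.

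THRSP (Spot 14), a nuclear protein linked to fatty acid synthesis, stood at 10.998, 10.58, 10.59 and 10.91 with P4 and at 12.40, 12.51, 12.14 and 12.23 with MPA. Its highest P4 array stood well below its lowest MPA array, and the difference was 1.55 ± 0.22 (adjusted p = 5.51e-05, 2.93-fold). It was the only one called of 30 measured genes of cholesterol and fatty acid synthesis, which had a median of 0.13 with 22 above 0. Over all 9902 genes tested 4706 were above 0. Enzymes outside that list were also called. CROT, which moves medium-chain fatty acids out of peroxisomes, differed by 0.92 ± 0.16 (adjusted p = 0.00141). PISD, which makes phosphatidylethanolamine in mitochondria, differed by 0.80 ± 0.18 (adjusted p = 0.0290), a call lost without any 1 of the 8 arrays. UROD, an enzyme of heme synthesis, had one of the smallest called differences, 0.52 ± 0.12 (adjusted p = 0.0258), with 12.19, 12.08, 11.98 and 12.09 on the P4 arrays and 12.60, 12.52, 12.62 and 12.70 on the MPA arrays. DDC, the decarboxylase that makes dopamine and serotonin, was detected on 2 of 4 MPA arrays and on no P4 array and differed by 1.01 ± 0.22 (adjusted p = 0.0231). SERHL2, a serine hydrolase-like gene, differed by 0.83 ± 0.14 (adjusted p = 0.000703). Of 19 measured genes of steroid conversion and catabolism outside the UGT2B family, 0 were called at this threshold. HSD17B2, which oxidises estradiol and testosterone, was just outside it, at 0.97 (adjusted p = 0.0557).

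Of 19 measured epithelial channels and transporters, 3 were called (SLC26A3, AQP3 and KCNMA1), against 0.374% of all genes tested. The median of the list was 0.14, with 13 above 0. With the compared groups alone in the fit 1 member was called, and AQP3 and KCNMA1 lost their call. SLC26A3, a chloride and bicarbonate exchanger, stood at 9.01, 8.68, 8.58 and 9.05 with P4 and at 10.78, 10.52, 10.52 and 10.13 with MPA, a difference of 1.66 ± 0.29 (adjusted p = 0.00161, 3.16-fold). Its vehicle arrays were the most scattered of the 3 groups, at 6.49 to 8.71. KCNMA1, the pore subunit of a potassium channel opened by calcium and voltage, differed by 0.99 ± 0.16 (adjusted p = 0.000627). AQP3, a channel for water and glycerol, was detected on 3 of 4 MPA arrays and on no P4 array and differed by 1.26 ± 0.26 (adjusted p = 0.0102), with MPA replicate 4 at 8.19 above the other MPA arrays at 6.66 to 7.20. Without MPA replicate 4 or without P4 replicate 2 the call of AQP3 was lost (adjusted p = 0.110 and 0.0771). ABCC11, an exporter of steroid conjugates found in apocrine cells, differed by 0.85 ± 0.19 (adjusted p = 0.0242).

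Among genes of signalling and transcription, PARP9 and PARP14, which encode ADP-ribosyltransferases and lie near each other with 2 genes between them, were both higher with MPA. PARP9 stood at 8.73, 8.67, 8.78 and 8.60 with P4 and at 10.22, 10.38, 10.04 and 10.13 with MPA, a difference of 1.50 ± 0.24 (adjusted p = 0.000421). PARP14 was detected on all 4 MPA arrays and on no P4 array, and differed by 1.22 ± 0.21 (adjusted p = 0.00139, at least 1.19-fold). Both are known to respond to interferon, but of 8 other interferon-induced genes measured 0 were called, with a median of 0.05. SOCS2, an inhibitor of growth hormone and cytokine signalling, stood at 9.36, 9.38, 9.09 and 8.80 with P4 and at 10.39, 10.56, 10.40 and 10.24 with MPA, a difference of 1.24 ± 0.21 (adjusted p = 0.00141). ZNF689, a zinc finger protein, stood at 11.07, 11.07, 11.20 and 11.24 and 12.004, 12.36, 12.29 and 12.30, a difference of 1.09 ± 0.12 (adjusted p = 1.58e-06). These were tight groups, in which replicates varied by far less than the difference. Smaller differences were found for WWC1 (KIBRA, an upstream regulator of the Hippo pathway) at 0.77 ± 0.10, TSC22D1 (a leucine zipper protein induced by TGF-beta) at 0.65 ± 0.13, STARD13 at 0.68 ± 0.16, SASH1 (a signalling adaptor) at 0.87 ± 0.20 and S1PR3 (a receptor for a sphingosine phosphate) at 0.51 ± 0.11. ANKRD22, STOX1, TTC39C, USP54 and TTC21A differed by 1.13, 0.92, 0.83, 1.04 and 1.28, the last pair from below detection with P4. TTC21A and STARD13 had the highest adjusted p-values of all called genes (0.0356 and 0.0372), and FAM167A, at -0.82, was the nearest gene outside (0.0521). HSD17B2 and FAM167A were named after their values were seen.

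The 2 genes lower with MPA were DOCK2, an activator of the GTPase Rac best known from blood cells, and CBLN2, a secreted organiser of synapses. DOCK2 stood at 10.07, 10.16, 10.04 and 10.07 on the P4 arrays and at 8.91, 9.09, 8.90 and 8.52 on the MPA arrays, a difference of -1.23 ± 0.21 (adjusted p = 0.00124). CBLN2 stood at 10.93, 10.59, 10.71 and 10.77 with P4 and at 9.59, 9.31, 9.40 and 9.44 with MPA, a difference of -1.31 ± 0.25 (adjusted p = 0.00440). Both genes were detected on all 8 arrays, and the groups were clearly separated. Of 11 leukocyte markers with a probe, 10 were detected on none of the 8 arrays.

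No gene of the estrogen-induced list or of the cell cycle lists passed the test, although GREB1 did with array weights. Of 30 measured estrogen-induced genes 0 were called, with a median of -0.05 and members from -0.45 to 0.84. TFF1 (trefoil factor) differed by -0.45 ± 0.25 (95% interval -0.96 to 0.07) and GREB1, a coactivator of the estrogen receptor, by 0.84 ± 0.28 (adjusted p = 0.484, 95% interval 0.28 to 1.40). Its 4 MPA arrays, at 7.93, 7.76, 7.31 and 8.24, were above the P4 arrays at 7.26, 6.77, 6.85 and 6.997. CCND1 (cyclin D1) differed by -0.12 ± 0.12 (95% interval -0.36 to 0.12) and MYC by -0.09 ± 0.17 (-0.43 to 0.24). Likewise 0 of 13 genes of cell cycle entry, 0 of 31 of DNA replication and 0 of 33 of mitosis were called, and no member of these lists differed by more than 0.32 in size. Of these members 12 of 13, 26 of 31 and 21 of 33 were below 0, as were 5196 of all 9902 genes tested. The ErbB receptors and ligands had 0 of 8 called, with EGFR at -0.35 ± 0.19 (95% interval -0.74 to 0.03) and EGF at -0.02 ± 0.34 (-0.72 to 0.67). Of 12 genes of the BCL2 family 0 were called, and BCL2 differed by -0.45 ± 0.26 (-0.98 to 0.09). The unfolded protein list had 0 of 20 called.

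Of genes tied to progesterone or to secretion in these cells, SERPINA3, a protease inhibitor, stood at 8.61, 9.09, 8.58 and 9.03 with P4. With MPA its values were 9.46, 9.20, 9.28 and 8.91, and the groups overlapped (0.39 ± 0.53, 95% interval -0.70 to 1.48). That SE comes from the fit over all 36 arrays and is not the spread of these 8 alone. For SERPINA3, E2 replicate 2 read 12.42 while the rest of its group read 9.30 to 9.52. Conversely, E2pre+P4 replicate 2 read 9.42 while the rest of its group read 12.47 to 12.88. SEPTIN4 was detected on 2 MPA arrays and on no P4 array and differed by 0.17 ± 0.25, and THOC5, an mRNA export factor, by 0.21 ± 0.20. SCGB1D2 (lipophilin B) differed by 0.15 ± 0.26 and S100P, a calcium-binding protein, by 0.62 ± 0.28 (95% interval 0.04 to 1.20). PDZK1, an estrogen-induced scaffold protein, was below detection on all 8 arrays. HSD11B2, which inactivates cortisol, stood at 9.26, 9.25, 8.89 and 9.35 with P4 and 10.06, 9.81, 9.91 and 10.21 with MPA. C1orf116, an androgen-induced gene, stood at 6.53, 7.01, 7.14 and 6.97 and 8.11, 8.66, 8.49 and 8.27. For both genes the groups did not overlap, yet neither difference passed the test (0.81 ± 0.33 and 1.47 ± 0.74, adjusted p = 1.000 each). Both did so without the arrays labelled E2 replicate 2 and E2pre+P4 replicate 2, with adjusted p of 0.000709 and 1.60e-05. Of the panel of 24 genes, ZBTB16 and PER1 were detected on no array of the series and were not tested.

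**Figure D3:**
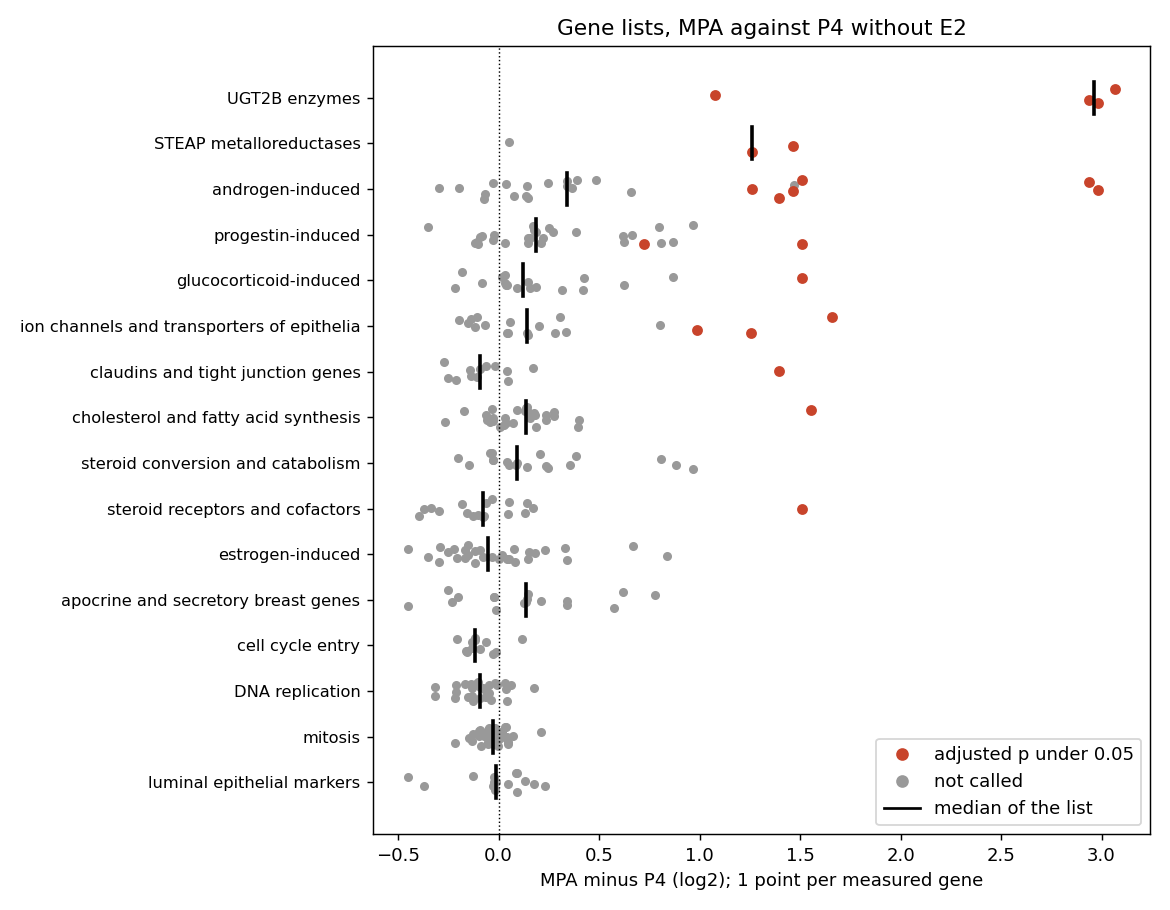
Difference MPA minus P4 (log2) of each measured gene in 16 lists, with called genes in red and the median of each list as a black line. The UGT2B and STEAP genes that passed the detection filter have medians of 2.96 and 1.26. With no filter these medians are 1.07 and 0.67, and the filter counted arrays of all groups, those with MPA included. The medians of the cell cycle lists lie just below 0 (-0.12 to -0.03).

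To place the difference relative to untreated cells, each progestin was set against vehicle, a comparison that shares the MPA or P4 arrays with the one above. With MPA 194 genes were called against vehicle (1.96% of those tested), 80 higher and 114 lower, whereas with P4 0 genes were called. For P4, 2608 genes had an unadjusted p under 0.05 and the lowest adjusted p was 0.0944. The split with MPA depended on the scaling, being 110 higher and 82 lower after cyclic loess and 95 and 52 with the deposited value table. Over all genes the median was -0.12 for both progestins against vehicle and near 0 after cyclic loess. Of the 37 genes, 34 were called against vehicle with MPA, each in the same direction as against P4. The exceptions, at adjusted p of 0.382, 0.0557 and 0.0614, were SASH1, ABCC11 and S1PR3. With P4, 0 of the 37 were called and the 95% interval of 29 held 0, with 19 means above and 18 below vehicle. Differences of P4 from vehicle ranged from -0.62 (SASH1) to 1.07 (TTC21A), and 8 had an unadjusted p under 0.05. The 8 were UROD at 0.53 ± 0.12, UGT2B11 at 0.69 ± 0.19, TTC21A at 1.07 ± 0.29, SLC26A3 at 0.995 ± 0.29, STEAP1 at 0.71 ± 0.25, STEAP2 at 0.52 ± 0.21, SASH1 at -0.62 ± 0.20 and DOCK2 at -0.51 ± 0.21. Against vehicle, the same genes stood in MPA at 1.06, 3.67, 2.34, 2.65, 1.97, 1.99, 0.24 and -1.74. The count for P4 depended on vehicle replicate 2, the array nearest to the P4 group. Without it 1218 genes were called with P4 and 1807 with MPA. Without vehicle replicate 4 there were 60 with P4, and the count with MPA fell to 67 without vehicle replicate 1 and to between 98 and 120 without MPA replicate 1, 3 or 4. Of the 37 genes 7 were called with P4 once vehicle replicate 2 was left out (UGT2B11, SLC26A3, TTC21A, STEAP1, UROD, SASH1 and DOCK2). For FKBP5 the P4 arrays differed from vehicle by 0.17 ± 0.32 and the MPA arrays by 1.68 ± 0.32, and for UGT2B7 by -0.04 ± 0.25 and 3.03 ± 0.25, with vehicle replicate 1 at 8.06 apart from the other vehicle arrays at 6.05 to 6.73.

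**Figure D4:**
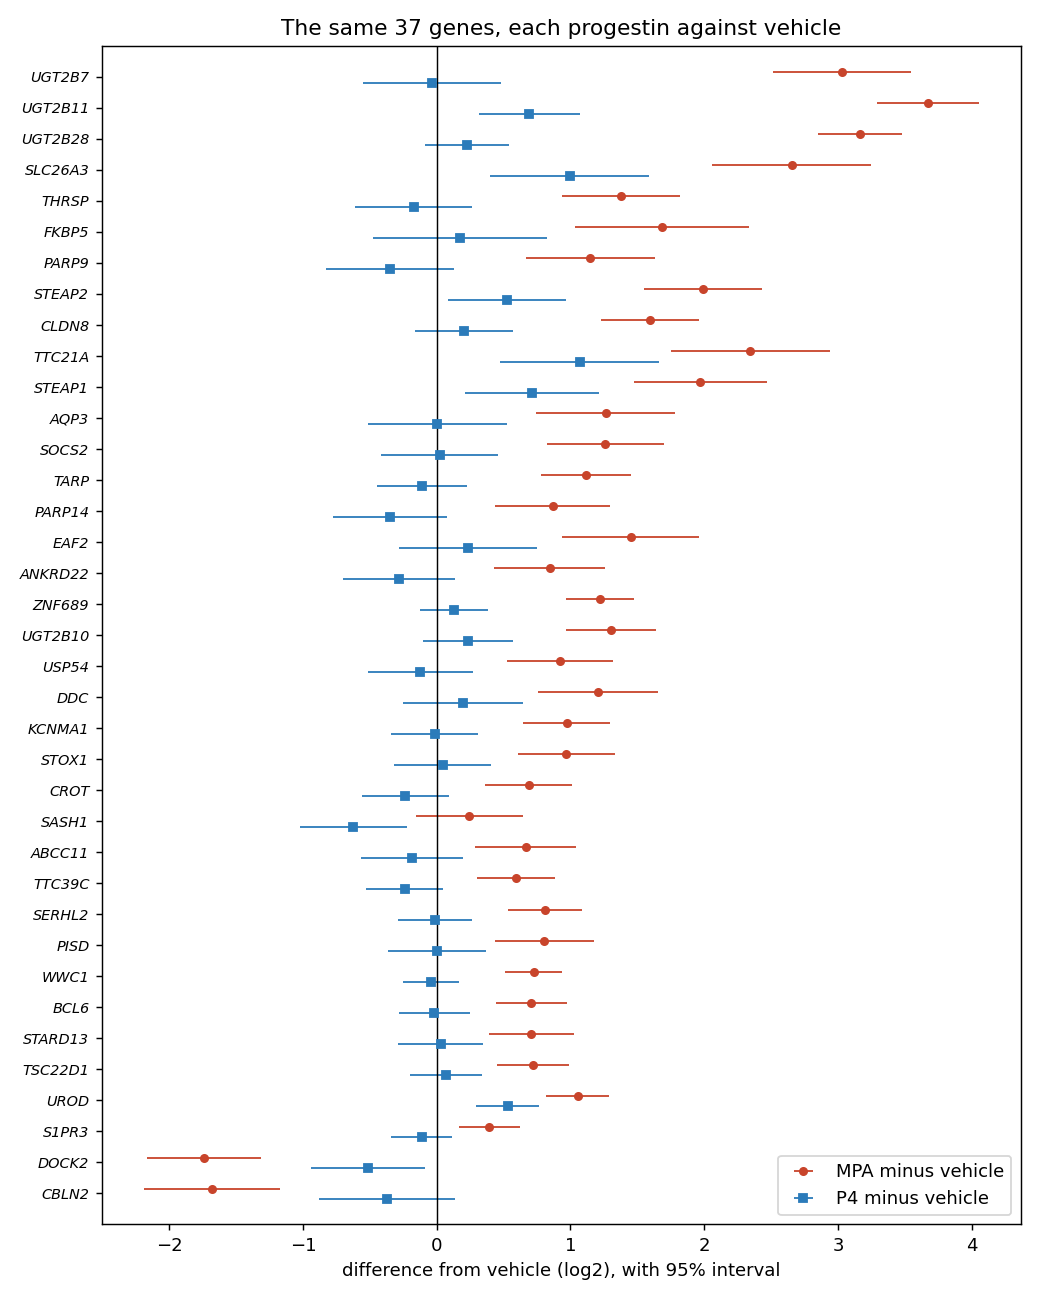
Difference from vehicle (log2) with its 95% interval for the 37 genes, with MPA in red circles and P4 in blue squares. The P4 intervals hold 0 for 29 of 37 genes, and the P4 values run from -0.62 to 1.07.

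The androgen DHT at the same dose, set against the same MPA arrays, gave 30 called genes (0.303%). It exceeded MPA for UGT2B7, UGT2B11 and UGT2B28 by 2.64 ± 0.25, 2.59 ± 0.19 and 2.76 ± 0.15, for AQP3 by 1.30 ± 0.26 and for CLDN8 by 1.12 ± 0.18, and was lower for DOCK2, at -1.20 ± 0.21. STEAP1 and STEAP2 stood lower with DHT than with MPA, at -0.86 ± 0.25 and -0.76 ± 0.21, which did not pass the test (adjusted p in limma = 0.216 each), and DHT left them detected on 1 and 2 of 4 arrays. FKBP5, SLC26A3, TARP and ZNF689 differed between DHT and MPA by 0.18, 0.13, 0.11 and 0.08, with intervals of -0.47 to 0.84, -0.46 to 0.73, -0.22 to 0.45 and -0.17 to 0.33.

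Whether the difference between the progestins was also found with E2 was examined on 8 other arrays, those of the E2+MPA and E2+P4 groups. There 46 genes were called (0.465%), 33 higher and 13 lower with MPA. All 37 genes had the same direction as without E2, and 48.9% of all genes lay above 0 with E2. Of the 37, 23 were called (62.2% of them, and 50% of the 46), 21 higher and 2 lower, and for 33 the arrays did not overlap (6.40% of all genes in either direction). UGT2B7, UGT2B11 and UGT2B28 differed with E2 by 2.32 ± 0.25, 2.65 ± 0.19 and 2.35 ± 0.15, FKBP5 by 1.46 ± 0.32, STEAP2 by 1.49 ± 0.21, TARP by 1.34 ± 0.16, DOCK2 by -1.17 ± 0.21 and CBLN2 by -1.36 ± 0.25. The change by E2 was tested as an interaction, and 0 genes passed (456 at an unadjusted p under 0.05, 6 of them among the 37). The 37 were chosen by the difference without E2, which favours smaller values with E2. For these 6 the difference was smaller with E2, with a change of -0.83 (unadjusted p in limma = 0.00900) for PARP14, -0.59 for UGT2B28, -0.40 for UROD, -0.35 for WWC1, -0.80 for EAF2 and -0.75 for UGT2B7. UROD differed by 0.12 ± 0.12 with E2, and EAF2 by 0.41 ± 0.25. TFF1 was called lower with MPA in the presence of E2 (-1.07 ± 0.25, adjusted p = 0.0424), and its change by E2, -0.62 ± 0.36, did not pass the test (adjusted p in limma = 0.939). PGR, detected on all 4 E2+P4 arrays and on 2 of 4 E2+MPA arrays, differed there by -1.22 ± 0.35 (adjusted p = 0.119). The count with E2 depended on single arrays, rising to 382 without E2+MPA replicate 1 and to 276 without E2+MPA replicate 2, and falling to 25 and 23 without E2+MPA replicates 3 and 4 and to 28 and 27 without E2+P4 replicates 1 and 2, with between 18 and 28 of the 37 called over the single arrays left out.

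**Figure D5:**
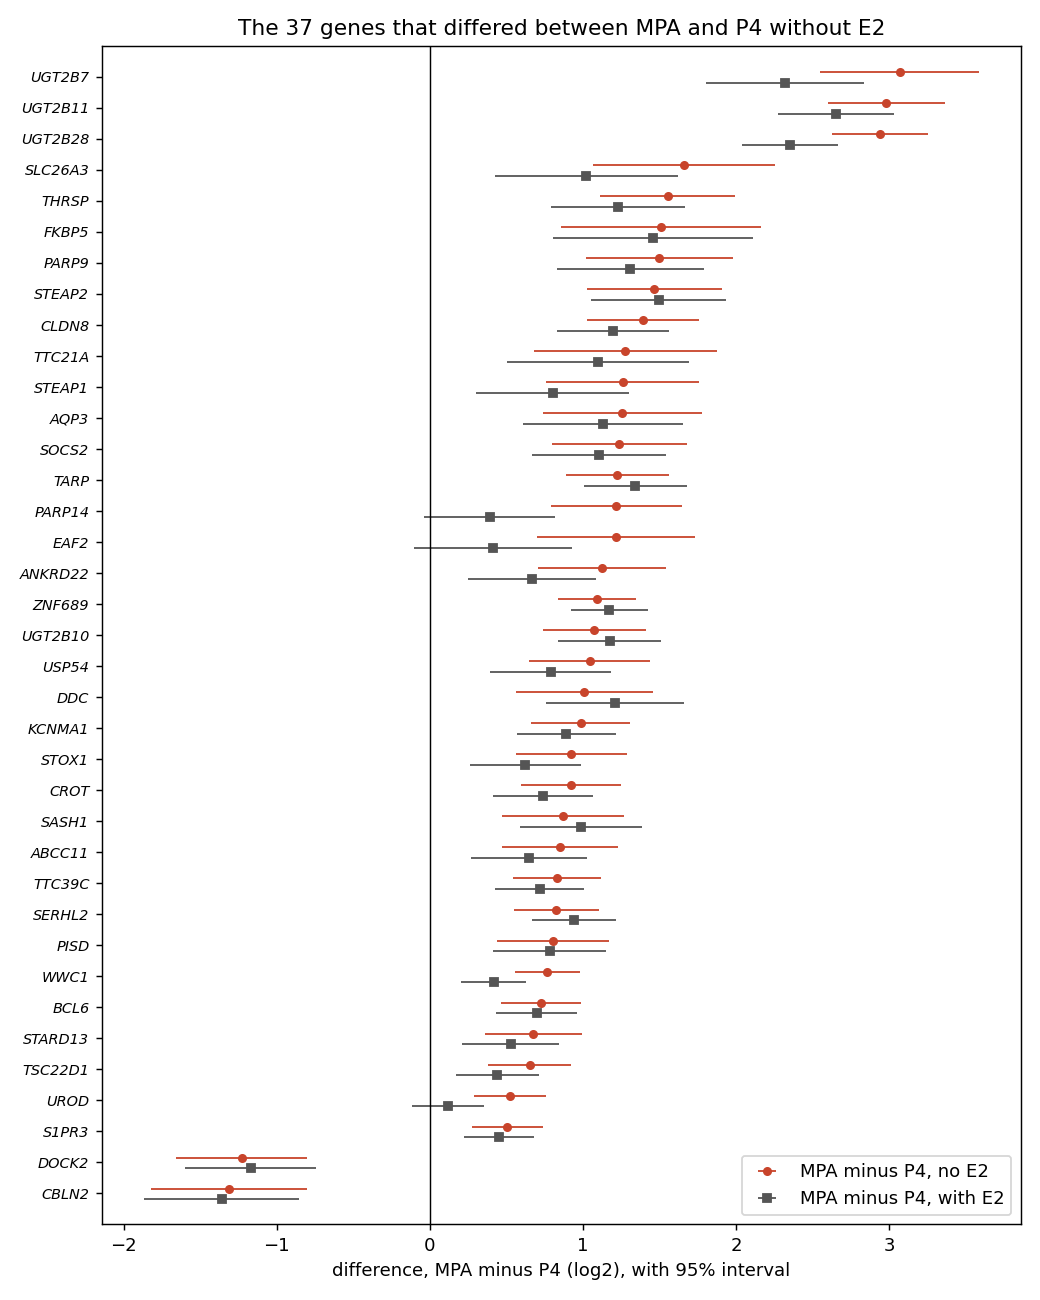
Difference MPA minus P4 (log2) with its 95% interval for the 37 genes, without E2 in red circles and with E2, on 8 other arrays, in grey squares. All 37 pairs lie on the same side of 0, and 23 of the 37 genes were also called with E2.

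The 8 arrays fall in several runs of consecutive sample numbers, which the labels do not name as batches. Deviations from the group means correlated at 0.218 between arrays of the same run of 6 and at -0.04 between runs, a description across genes. A run of 6 held both progestins in 2 cases, MPA replicate 3 with P4 replicates 2 and 3, and MPA replicate 4 with P4 replicates 1 and 4. Within them the medians of the 35 higher genes were 1.12 and 1.04, where the direction of each gene was fixed beforehand because no gene's groups overlapped. With runs of 6 as a block 32 genes were called, 28 of them among the 37. Of the 37 genes, 23 were called under all the other settings tried, at most 23 for a gene. Leaving out MPA replicates 1 to 4 in turn left 29, 28, 30 and 29 of the 37 called, and leaving out P4 replicates 1 to 4 left 28, 29, 27 and 31. Of these 8 fits PISD and TTC21A lost their call in all 8, ABCC11 in 7 (all but that without MPA replicate 1), SASH1, STARD13, UROD and S1PR3 in 6, DDC in 5, EAF2 in 3 and TSC22D1 in 2. For 11 of the 37 genes another probe had passed the filter, and all 14 such probes had the same sign, 7 of them called over all probes.

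As PR and GR bind inverted repeats of the same half-site, the promoter entries of the called genes (33 of 37, 250 bases before to 50 after the start, RefSeq GRCh38.p14) were searched on both strands for AGAACA, the half-site, and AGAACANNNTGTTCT, the full element that contains it. The half-site was found in 3 of 33 promoters (9.09%), against 14.8% of all 35116 promoters of this length, and the full element in 0 of 33 and in 1 promoter of all (0.00285%). The matches are shown with their flanks, 5′ to 3′ along the gene, and capitals mark the half-site or its reverse complement.
FKBP5 (chr6:35728566-35728595, minus strand): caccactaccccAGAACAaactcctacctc
USP54 (chr10:73591452-73591481, minus strand): tctctgatatccTGTTCTgcgggaagtcct
TTC39C (chr18:24113077-24113103, plus strand): aagttactgAGAACAggaatcagggat
A match is a description of these letters in this window. The 3 UGT2B promoters held no match.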

How the data were processed

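ZR-75-1 cells were profiled on Illumina HumanWG-6 v3 arrays, 36 in 9 groups of 4 taken from the sample labels. The authors exported probe intensities from BeadStudio and deposited them without normalisation. Each has a deposited detection p-value column beside it, which rose with signal and so was taken to be 1 minus that p-value. Intensities in a deposited value table proved to be a linear change of the same signals, with a constant and scale not given in the sources used here, and served as an alternative. The methods of the study add variance stabilisation and ComBat, which were not applied here, so that effects of hybridisation batch may remain. The labels name no chip.

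Signals were background-corrected by a normal-exponential model, an offset of 16 was added, and quantile-normalised values were used as log2 (neqc, limma 3.58.1, R 4.3.3), where the offset shrinks differences of dim genes. Of 48803 probes 27578 had 1 gene symbol, 13 several and 21212 none. The filter kept probes detected (p under 0.01) on 4 arrays or more (15112, of which 12821 had 1 symbol), and the probe with the highest mean was used per gene (9902 genes). Signal over background and the number of arrays limit the precision. A model of 9 group means was fitted over all 36 arrays with eBayes, 1 pair of progestins being compared without E2, and p-values were Benjamini-Hochberg adjusted over all genes, with calls under 0.05. Fits were tested on simulated data. Genes named are all called genes, a panel of 24 genes and called members of the lists. Members, lists, panel and tests were chosen with earlier results of these data known. Alternatives were the normalisation, offset, filter, probe choice, arrays in the fit, weights, prior, replicate number or run of samples as a block, and leaving out single arrays. Promoters were aligned with Biopython (1.88).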

Additional observations from a re-analysis of the deposited data

Results flagged for a closer look

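Of 112 sets of 4 arrays examined for a single array far from the others (each named gene in the MPA and the P4 group), 2 were found, and chance alone would give about 1 in 20. TTC21A on MPA replicate 4 stood at 8.33 against 7.62 to 7.68 on the other MPA arrays, a gap of 0.906 of the range of the group. PARP14 on MPA replicate 1 stood at 6.92 against 7.39 to 7.45, a gap of 0.886 of the range. Both arrays lay on the same side of all P4 arrays as the rest of their group.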

How the results depend on the processing

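The number of genes called between MPA and P4 was 37 and lay between 27 and 32 when single arrays of either group were left out, at 48 with cyclic loess or the deposited value table, 36 to 39 with another filter, an offset of 50, another prior or the groups without E2, and 40 with the replicate block, which kept 35 of the 37. Same-numbered MPA and P4 arrays deviated together at 0.347, 0.0928, 0.273 and 0.118, and 3 of the 4 MPA arrays correlated best with their own number. As the pair numbered 2 did not exceed 0.1, the numbers were not taken to pair the samples. The replicate block moved no count of calls by over 1.5 times and ended the calls of TTC21A and SASH1. With the compared groups alone in the fit 65 genes were called between MPA and P4, 18 with E2, 40 with MPA against vehicle and 2 with P4 against vehicle. With array weights these counts were 192, 93, 1290 and 1403. Without the arrays labelled E2 replicate 2 and E2pre+P4 replicate 2 the count was 110 with E2 and 8 for P4 against vehicle, and with cyclic loess it was 74 with E2. P4 against vehicle gave 7 calls with every probe on its own and 2 with the groups without E2 only, and MPA against vehicle gave 94 with runs of 6 as a block. Leaving out single arrays, an alternative that for vehicle and the groups given E2 was chosen after seeing the data, gave 67 to 1807 for MPA against vehicle, 0 to 1218 for P4 against vehicle and 23 to 382 with E2. The interaction had 0 calls in each of these settings in which it was fitted, namely all but those of the groups without E2 and of vehicle replicates 1, 3 and 4. Leaving out E2 replicate 4 gave 2 calls for P4 against vehicle. The causes were not tested.

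Of the 37 genes 14 lost their call under at least 1 of 23 settings (FKBP5, TTC21A, STEAP1, AQP3, EAF2, DDC, KCNMA1, SASH1, ABCC11, PISD, STARD13, TSC22D1, UROD and S1PR3). Of the uncalled genes of the panel, EGF and SCGB1D2 turned their sign in 6 cases, and uncalled genes outside the panel were not counted. EGF stood at -0.02 and moved to 0.20 with runs of 6 as a block, and lay between -0.23 (without MPA replicate 4) and 0.16 with single arrays left out, above 0 without MPA replicate 1 (0.05), MPA replicate 2, P4 replicate 1 (0.0044) or P4 replicate 4 (0.04), whereas SCGB1D2 moved from 0.15 to -0.050 with runs of 6 as a block. Genes near background limit what the arrays can show, since 11 of the 37 were below detection on some or all arrays.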

Other observations

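Of the probes that no single gene symbol names, 2 were called between MPA and P4 when every probe was tested on its own. Probe ILMN_1762093 had means of 9.48 with MPA and 8.27 with P4, a difference of 1.21 ± 0.19 (SE, log2, limma, adjusted p = 0.000461), and differed by 1.09 with E2. Probe ILMN_2289844 had means of 14.56 and 13.79, a difference of 0.77 ± 0.17 (adjusted p = 0.0349), and differed by 0.72 with E2. Both were detected on all 8 arrays.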
